A study of Homo sapiens with 6 samples.

Results

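RNA recovered with an antibody to thymidylate synthase (TS) was compared with RNA that stayed on antibody-free beads, in colon cancer cells treated with 5-fluoro-2'-deoxyuridine (5FdUR). The genes described were all entries of the deposited table whose mean over the 2 libraries was above 5000, which gave 10416 of 42822 entries. The level rule did not use the ratio of the libraries, but an entry high in only 1 of them could pass it. An entry is a gene, or a group of overlapping genes that the authors' software merged. Of the 10416 entries 967 were merged and 9445 were treated as holding 1 gene, which includes 14 of the 18 entries without a transcript in GENCODE 44, and the other 4 of those 18 could not be classed. The cells were HCT116-UGI, a derivative of the HCT116 colon adenocarcinoma line that lacks mismatch repair and carries UGI, a protein inhibitor of the uracil-DNA glycosylase UNG, and all groups shared this background.

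The 5FdUR cells received 20 µM of the drug for 48 h. The series also held cells given 100 nM raltitrexed (RTX) for 48 h and non-treated (NT) cells, which are used here only beside the 5FdUR values. From each lysate, made by reuniting cytoplasmic and nuclear extracts, the beads of the pre-clearing step served as the control (RIPctr), and the antibody and new beads were then added to the cleared lysate (TS-RIP). The antibody and the order of the bead steps therefore differed together between TS-RIP and RIPctr and cannot be told apart. There was 1 library for each treatment and fraction, so no ratio has a replicate error and no test was made.

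TS makes the thymidine nucleotide needed for DNA synthesis, and the phosphorylated form of 5FdUR blocks it by a covalent bond. TS is also known to bind RNA, first described for its own mRNA, which it represses. An immunoprecipitate of an RNA-binding protein holds its RNA partners, RNA bound to other proteins of the complex and RNA that sticks to beads, so its content is read against beads without antibody.

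Depth was 10215667 fragments in TS-RIP and 7051104 in RIPctr, and the other 4 libraries held 7903472 to 11657293. Values were fragment counts on a common scale with no division by transcript length, where 1 fragment was worth 99.7 in TS-RIP and 136 in RIPctr. At the minimum mean of 5000, TS-RIP would hold 50.2 fragments and RIPctr 36.7. Many of the extreme genes named below passed this minimum only through the library where they were high. SCARNA12 did so through RIPctr (values of 399 in TS-RIP and 14036 in RIPctr), and ALG8 through TS-RIP (7973 and 3134). So did all 10 lowest coding genes and most of the 10 lowest noncoding genes, through RIPctr, and LIMD2 and SMPD2, through TS-RIP. For each ratio 100 was added to both values, and the log2 of the RIPctr value was subtracted from that of TS-RIP, so a positive ratio means higher in TS-RIP. Brackets give the exact binomial (Clopper-Pearson) 95% interval of the scaled fragment counts, without the added 100. For genes with few fragments the added 100 draws the ratio toward 0 but not its interval. With 1 library a side the interval covers counting error only, and it treats PCR copies as independent molecules, which they are not. The median width of this interval was 0.46, and it was 0.96 in the lowest quintile of levels and 0.20 in the highest. Just outside the level rule were DACT3 (mean 4999, ratio -0.18) and CNTD2 (4989, 0.28), and just inside were ZNF414 (5002, 0.44) and B4GAT1 (5004, -0.41). Among 15 colon epithelial markers, 7 passed the level rule, and the list summed to 10243000 in TS-RIP and 8788500 in RIPctr. Most of both sums came from the keratins KRT8 (5293900 in TS-RIP and 4568300 in RIPctr), KRT18 and KRT19. Of 19 markers of fibroblasts, blood, endothelium and liver only COL1A1 and an entry that merges CD68 with other genes were measured, and 6 markers were at 0 in both libraries. CDX1 and LGR5 had 0 fragments in TS-RIP and 1 each in RIPctr, VIL1 3 and 5, CDH17 3 and 4, and GPA33 0 and 6. LGALS4 had 1 and 0, MUC2 1 and 1, and KRT20 21 and 12. Several markers of mature or stem-like colon epithelium were thus near 0 in this line, while CDX2 passed the level rule (130 and 78).

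Most genes differed little between TS-RIP and RIPctr under 5FdUR. The median ratio was 0.03, the quartiles were -0.20 and 0.21, and 92.8% were within 1.5-fold. Higher by 1.5-fold were 116 genes (1.11%) and lower 629 (6.04%), and requiring a counting interval past 0 left 113 (1.08%) and 627 (6.02%). Past 2-fold only 3 genes (0.0288%) were higher, against 166 (1.59%) lower. At any size, 2644 genes (25.4%) had an interval above 0 and 2094 (20.1%) one below 0. The range was lopsided, with a highest ratio of 1.32 and a lowest of -6.65. Below -2 were 28 genes, of which 20 were noncoding, while 10220 of the 10416 genes were protein-coding. The plot of ratio against level shows this long lower tail.

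**Figure D1:**
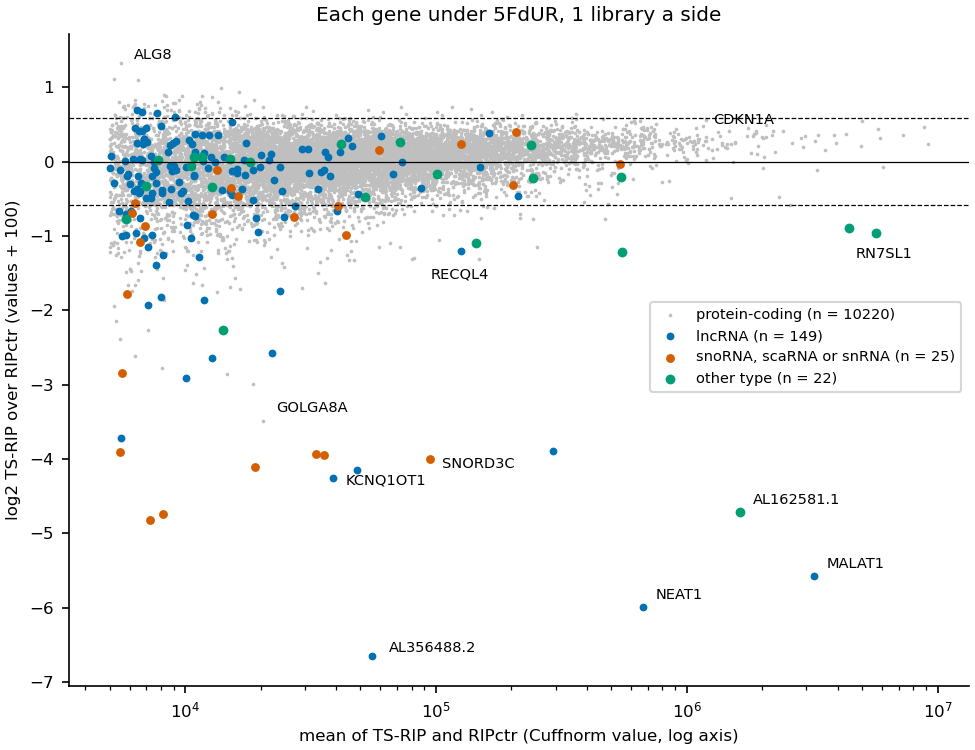
Ratio of TS-RIP over RIPctr (log2, 100 added to each value) against the mean of both libraries (log axis) for the 10416 genes under 5FdUR, 1 point a gene, coloured by gene type. Dashed lines mark 1.5-fold. The points below -4 are noncoding RNAs. Protein-coding genes spread less as the level rises, with a median of 0.16 in the highest quintile of level (entries of 1 gene).

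By gene type the medians separated. The 10220 protein-coding entries had a median of 0.04, with 112 higher and 569 lower. The 149 lncRNAs had a median of -0.17, with 4 higher and 37 lower, or 24.8% lower against 6.04% of all genes. Within lncRNA entries of 1 gene, the 35 with 1 exon had a median of -0.20 and the 88 with 2 or more exons -0.12. Of 17 snoRNA entries, which carry guides of rRNA modification, 10 were lower and 0 higher (median -0.70). The snoRNA entries fell into 2 kinds. All 7 that held only the snoRNA were lower (median -3.95). Of these only SNORD3C was above 5000 in TS-RIP (10963), and the others passed the level rule only through RIPctr. Those merged with other genes lay on both sides of 0, between -0.99 (SNORD50B with SNHG5) and 0.39 (SNORD1C with its host SNHG16). Also lower among the merged were SNORA9 with SNHG15 (-0.70) and SNORD27 with SNHG1 and other snoRNAs (-0.60). Both scaRNA entries, guides that work in Cajal bodies, were lower, as were 4 of 6 snRNA and 5 of 9 miscellaneous RNA entries. Both scaRNA entries passed the level rule only through RIPctr.

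The sequences of 3 of these RNAs are shown as short, structured members of the low noncoding group, in which long lncRNAs also lie. SCARNA12 and TERC are among its lowest ratios and SNORD17 is a less low guide RNA, shown beside SCARNA12 for its shared boxes. All are GENCODE 44 transcripts on GRCh38, written 5′ to 3′ as DNA letters. SCARNA12 (chr12:6967337-6967606, minus strand) and SNORD17 (chr20:17962710-17962946, minus strand) are guide RNAs of the box C/D class, SCARNA12 with a box H/ACA part as well. Capitals mark the first TGATGA, the core of box C, and the last CTGA, the core of box D. Of 1597 transcripts of the table between 200 and 300 bases, 5.89% hold TGATGA followed by CTGA on the transcript strand.
SCARNA12: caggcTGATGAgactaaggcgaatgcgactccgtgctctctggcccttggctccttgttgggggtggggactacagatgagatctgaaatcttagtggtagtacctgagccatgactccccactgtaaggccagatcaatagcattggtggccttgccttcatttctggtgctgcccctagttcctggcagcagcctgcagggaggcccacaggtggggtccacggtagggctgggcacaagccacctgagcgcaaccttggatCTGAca
SNORD17: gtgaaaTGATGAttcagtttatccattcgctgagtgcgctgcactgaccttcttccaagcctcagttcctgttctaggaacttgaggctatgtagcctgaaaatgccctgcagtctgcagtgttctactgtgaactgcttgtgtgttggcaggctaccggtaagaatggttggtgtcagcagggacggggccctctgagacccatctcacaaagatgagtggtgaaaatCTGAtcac

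TERC (chr3:169764520-169765060, minus strand) is the RNA of telomerase, and its first 150 of 541 bases are given. Capitals mark the longest run that follows the CCCTAA repeat, bases 46 to 56, which is the template that telomerase copies into telomere repeats. Of 4664 transcripts of the table between 500 and 600 bases, 0.107% hold a run of 11 bases of this repeat on the transcript strand.
TERC: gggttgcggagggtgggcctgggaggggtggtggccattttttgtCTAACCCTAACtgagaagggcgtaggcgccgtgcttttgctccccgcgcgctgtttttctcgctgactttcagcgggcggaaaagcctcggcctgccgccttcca

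The lowest ratios of all belonged to RNAs known from the nucleus. AL356488.2 (ENSG00000270066, chr1:109100193-109100619) had 10 fragments in TS-RIP and 808 in RIPctr, a ratio of -6.65 [-7.85 to -5.90]. In GENCODE 44 its 427 bases cover all 420 bases of SCARNA2, a Cajal body guide RNA on the same strand. NEAT1, the scaffold of paraspeckles, whose entry also holds ENSG00000275948, had 207 fragments in TS-RIP and 9697 in RIPctr (-5.99 [-6.21 to -5.80]). MALAT1, a lncRNA of nuclear speckles merged with ENSG00000278217, had 1326 and 46120 fragments (-5.57 [-5.65 to -5.49]), which made it the most abundant RNA of this tail. SCARNA12 had 4 fragments in TS-RIP and 103 in RIPctr (-4.83 [-7.04 to -3.74]), and SCARNA7 had 5 and 116 (-4.73 [-6.64 to -3.72]). With so few fragments in TS-RIP, the size of both ratios is known only within about the width of these intervals. KCNQ1OT1, a silencing RNA of an imprinted gene cluster, had 38 and 544 fragments (-4.26 [-4.81 to -3.82]).

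The copies of U3, the snoRNA that guides the first cuts of the ribosomal RNA precursor, lay close together. SNORD3A had 43 fragments in TS-RIP and 496 in RIPctr, SNORD3C 110 and 1303, SNORD3B-1 20 and 264, and SNORD3B-2 40 and 458. Their ratios lay between -4.11 and -3.94, so the copies did not differ beyond their counting intervals, and reads that fit several copies were left out by the authors. TERC, whose template is marked above, had 51 fragments in TS-RIP and 676 in RIPctr (-4.15 [-4.62 to -3.77]). SNORD17, which with the U1 copies was named after its values were seen, had 26 and 67 (-1.78 [-2.53 to -1.14]), a smaller difference than that of the box C/D and H/ACA guide SCARNA12. The spliceosomal U1 copies RNU1-2, RNU1-3 and RNU1-4 had 42 to 49 fragments in TS-RIP and 56 to 66 in RIPctr, with ratios between -1.09 and -0.69.

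Of the small structural RNAs 24 were measured, of which 19 were lower and 0 higher (median -0.98, against 0.03 for all genes and shares of 6.04% lower and 1.11% higher). This list was picked by name, and several of its entries passed the level rule only through RIPctr. It counts copies of 1 RNA, such as U1, separately and includes entries merged with long host RNAs, such as SNORD1C with SNHG16 (0.39). Of the 8 measured well-known lncRNAs 5 were lower and 0 higher. FTX, an X-linked lncRNA, had 35 fragments in TS-RIP and 92 in RIPctr (-1.82 [-2.45 to -1.27]). NORAD, a mainly cytoplasmic lncRNA that binds Pumilio proteins, had 1802 and 1810 (-0.46 [-0.55 to -0.36]), within 1.5-fold. EPB41L4A-AS1 had 191 and 117 (0.25 [-0.08 to 0.60]). Among 6 lncRNA hosts of snoRNAs the median was 0.29. Hosts in entries that carry a snoRNA name, such as SNHG5, are given above with the snoRNA entries. GAS5 (0.32 [0.11 to 0.54]) and SNHG6 (0.39 [0.28 to 0.50]) lay above 0, while SNHG8, with 133 fragments in TS-RIP and 189 in RIPctr, was lower (-0.95 [-1.29 to -0.63]).

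The highest noncoding RNAs differed far less. AC005256.1 had 80 fragments in TS-RIP and 36 in RIPctr (0.69 [0.12 to 1.31]), AC080112.2, named GJD3-AS1 in GENCODE 44, 83 and 38 (0.67 [0.11 to 1.27]), and PIK3CD-AS2 95 and 44 (0.65 [0.13 to 1.21]). APTR, a lncRNA described as a repressor of CDKN1A, had 110 and 53 (0.60 [0.12 to 1.10]). LINC02035 (0.53) and AL157394.3 (0.48) were within 1.5-fold. All 6 rest on fewer than 100 fragments in RIPctr.

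**Figure D2:**
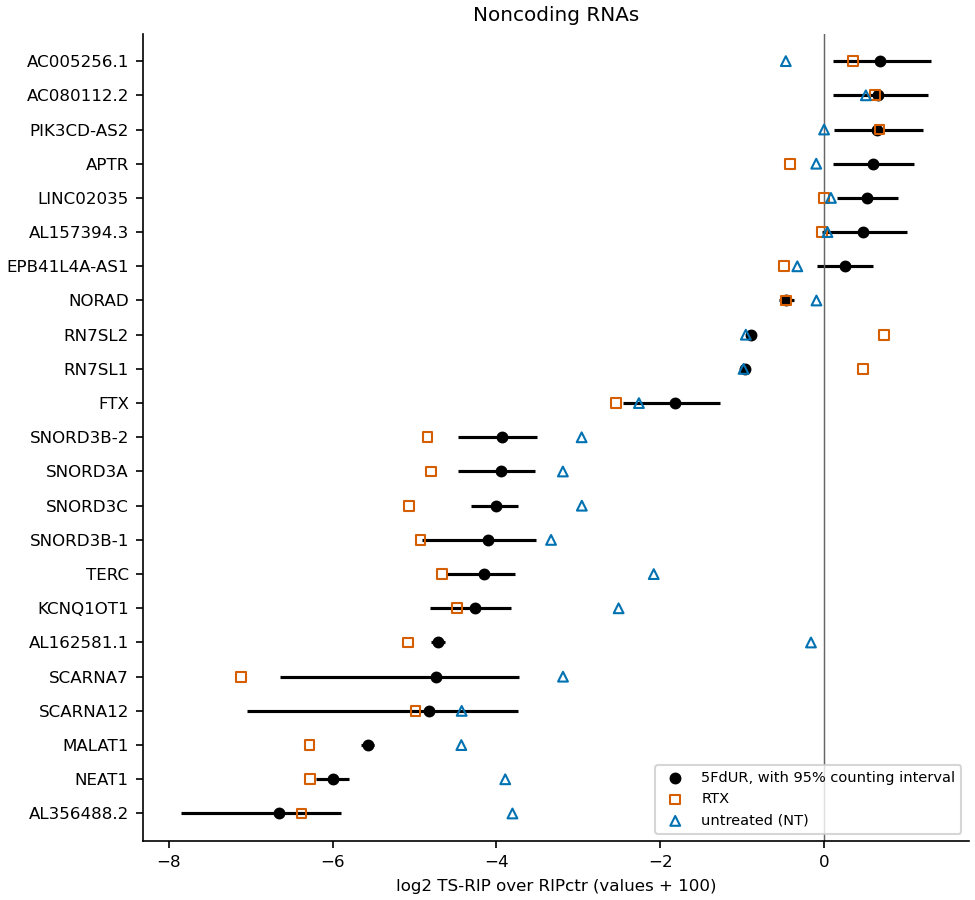
Ratio of TS-RIP over RIPctr (log2, 100 added to each value) for named noncoding RNAs. Black points with bars are 5FdUR with 95% counting intervals, squares RTX and triangles NT. The RNAs below -3 under 5FdUR were below -3 in RTX as well, and NT values were nearer 0 for most of them, most of all for AL162581.1.

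Most of the nuclear RNAs were low in the other treatments as well, with 7SK in NT as an exception. AL162581.1 (ENSG00000202198, chr6:52995620-52995950), which GENCODE 44 names 7SK, an RNA that holds the elongation factor P-TEFb inactive, had 1202 fragments in TS-RIP and 23067 in RIPctr under 5FdUR (-4.71 [-4.80 to -4.63]). In RTX it had 878 and 23008 (-5.08 [-5.18 to -4.98]). In NT it had 6298 and 5241 (-0.16 [-0.21 to -0.11]), so both the immunoprecipitate and the bead control of NT stood apart from those of the drug-treated cells. TERC had 88 and 280 fragments in NT (-2.08), and KCNQ1OT1 a ratio of -2.51 in NT, against -4.66 and -4.48 in RTX. SCARNA12 was low throughout (-4.83 in 5FdUR, -4.99 in RTX and -4.42 in NT). With 1 library each, whether treatments differ was not tested.

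7SL is the RNA of the signal recognition particle, which brings ribosomes that make secreted proteins to the endoplasmic reticulum (ER). Under 5FdUR its copies lay nearer 0 than the lowest nuclear RNAs, as the U1 copies did. RN7SL1 had values of 3862500 in TS-RIP and 7548300 in RIPctr (38756 and 55392 fragments, -0.97 [-0.99 to -0.95]) and was among the 10 most abundant RNAs of RIPctr but not of TS-RIP. RN7SL2, merged with ENSG00000282885, had 31173 and 42381 fragments (-0.89 [-0.92 to -0.87]). RN7SL3 had 3338 and 5691 (-1.22 [-1.28 to -1.16]), and the pseudogene RN7SL4P 922 and 1438 (-1.09 [-1.21 to -0.97]), while RN7SL5P, also a pseudogene, was within 1.5-fold at -0.17. The last 3 were named after their values were seen. Under RTX the order was another, with 0.48 for RN7SL1, 0.73 for RN7SL2, -0.43 for RN7SL3, 1.30 for RN7SL4P and 2.03 for RN7SL5P. Under NT they were -0.98, -0.95, -1.08, -1.29 and -2.38. Only reads placed at 1 site were kept by the authors, so the split between these near-identical copies, and with it the value of each copy, is uncertain.

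RNAs reported earlier as TS partners were the next question. All 8 of them were measured, 0 were higher, and 3 were lower (median -0.01). TYMS, the mRNA of TS itself, had 2013 fragments in TS-RIP and 1428 in RIPctr, values of 200620 and 194590 (0.04 [-0.05 to 0.14]). Its interval includes 0 and ends far below 1.5-fold. MYC, the gene of a proto-oncogenic transcription factor, had 2181 and 1638 (-0.04 [-0.13 to 0.06]), and KIF5B, a motor of vesicle transport, 5186 and 3771 (0.01 [-0.05 to 0.07]). ISG15, an interferon-induced modifier of proteins, had 2058 and 1173 (0.36 [0.26 to 0.46]), above 0 and within 1.5-fold. ZNF460, a zinc finger gene, had 297 and 456 (-1.07 [-1.29 to -0.86]). The other two that were lower are RN7SL1 and RN7SL2, given above.

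Of the p53 targets 37 were measured, 0 higher and 2 lower (median -0.03). Their share of lower genes was near the 6.04% of all genes, of which 1.11% were higher. CDKN1A, the cell cycle inhibitor p21, had 12985 fragments in TS-RIP and 7839 in RIPctr (0.28 [0.24 to 0.32]). MDM2, the ubiquitin ligase that removes p53, had 3934 and 4276 (-0.57 [-0.63 to -0.51]), just within 1.5-fold. CCNG2, an unconventional cyclin, had 83 and 117 (-0.94 [-1.37 to -0.53]), whereas its relative CCNG1 had 1818 and 1050 (0.34 [0.23 to 0.45]). The tetraspanin gene CD82 was at 0.35 [0.19 to 0.51].

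The protein-coding genes with the highest ratios were scattered over functions and mostly rested on few fragments. ALG8, a glucosyltransferase of N-glycan assembly in the ER, had 80 fragments in TS-RIP and 23 in RIPctr (1.32 [0.66 to 2.08]). LIMD2, a LIM domain protein, had 72 and 24 (1.11 [0.45 to 1.86]), and SMPD2, a neutral sphingomyelinase, 89 and 30 (1.10 [0.51 to 1.77]). CBY1, an antagonist of beta-catenin, had 186 and 68 (0.99 [0.59 to 1.42]). DES, the intermediate filament protein desmin, had 216 and 82 (0.94 [0.57 to 1.33]). The next 5 were PLCB4, a phospholipase C (0.90), ZNF524 (0.88), MPPE1, a phosphodiesterase that remodels GPI anchors (0.88), COA5, a cytochrome c oxidase assembly factor (0.88), and CIB2, a calcium-binding protein (0.87). All 10 intervals lay above 0, but they do not allow for the choice of the highest of 9298 genes.

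How far that choice set the values can be read in part from disjoint parts of the fragments. The authors had deposited a random draw from each library, and the remainder was the full library minus that draw. The 10 highest coding genes of the random draw had a median of 1.16 there and 0.48 in the remainder, where 3 of 10 passed 1.5-fold and 7 of 10 lay above 0. The 10 lowest had -2.52 and -2.59, and all 10 passed 1.5-fold again. The level rule used the full libraries, so the remainder had a part in choosing the genes. Genes such as GOLGA8A passed it only through RIPctr, so the remainder is not an independent check of the low end. Of 225 coding genes higher in the random draw, 34 (15.1%) were higher in the remainder, while of 629 lower ones 313 (49.8%) were lower again. MPPE1 was at 0.17 in the random draw and 1.80 in the remainder, and DES at 0.95 and 0.93. Over 9298 coding genes the ratios of draw and remainder had a Pearson r of 0.68, and 0.84 over the 3724 with a mean above 50000. Both came from the same libraries, so this describes counting noise and not the spread of repeated experiments.

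Among the 3724 abundant coding genes, the highest ratios were smaller and better counted. BUD23, a methyltransferase of 18S rRNA, had 913 fragments in TS-RIP and 400 in RIPctr (0.74 [0.57 to 0.91]). LY6E, a GPI-anchored surface protein, had 1449 and 636 (0.74 [0.60 to 0.87]), and PPP4C, the catalytic subunit of protein phosphatase 4, 1712 and 768 (0.70 [0.58 to 0.83]). CDKN2A, the gene of p16 and ARF, had 663 and 301 (0.69 [0.49 to 0.89]). INTS10, a subunit of the Integrator complex, and TNNT1, a troponin T of slow muscle, were both at 0.67. In RTX these 6 genes had ratios between 0.31 and 0.75, and in NT between 0.14 and 0.63.

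**Figure D3:**
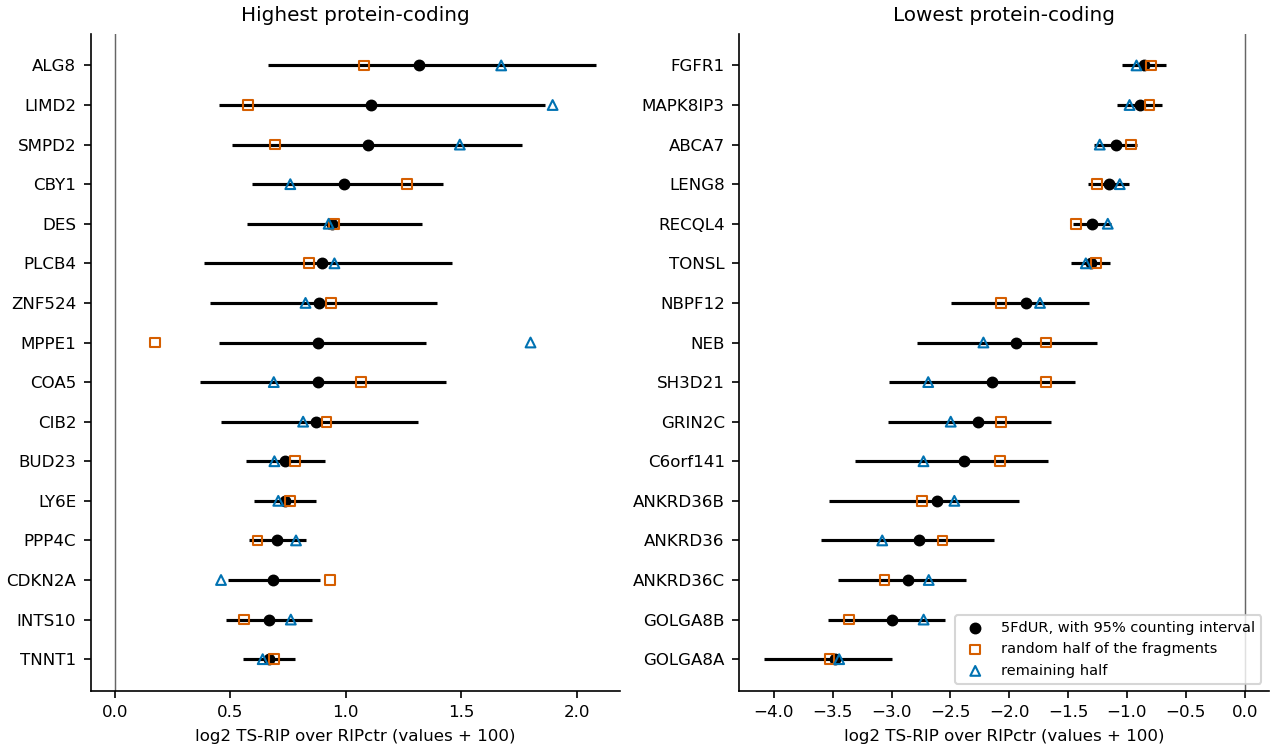
Protein-coding genes at both ends, the 10 highest or lowest of all and the 6 highest or lowest with a mean above 50000, as log2 TS-RIP over RIPctr (100 added). Black points with bars are the full libraries with 95% counting intervals, squares the random draw of fragments and triangles the remainder. Draw and remainder of MPPE1 lie at 0.17 and 1.80, while those of the abundant TONSL lie at -1.26 and -1.35.

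The lowest coding genes included several families with near-identical copies. GOLGA8A and GOLGA8B, paralogs of a golgin, had 33 and 41 fragments in TS-RIP against 277 and 244 in RIPctr (ratios of -3.48 and -2.99). The ankyrin repeat genes ANKRD36C, ANKRD36 and ANKRD36B had ratios of -2.86, -2.77 and -2.62, and NBPF12 of the neuroblastoma breakpoint family -1.86. Reads that fit several copies were left out, so the level of each copy is uncertain. Outside such families were C6orf141 with 17 fragments in TS-RIP and 68 in RIPctr (-2.38 [-3.31 to -1.67]), GRIN2C, an NMDA receptor subunit, with 24 and 87 (-2.26 [-3.03 to -1.64]), SH3D21 with 19 and 64 (-2.15), and NEB, the giant muscle protein nebulin, with 21 and 61 (-1.94). GRIN2C had 17 and 66 fragments in RTX (-2.26 [-3.19 to -1.54]), and in NT only 11 and 7, below the level rule (0.21 [-1.27 to 1.83]).

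Low ratios of abundant coding genes had narrow counting intervals. TONSL, a reader of newly replicated chromatin, had 462 fragments in TS-RIP and 836 in RIPctr (-1.31 [-1.47 to -1.14]), and RECQL4, a DNA helicase, had 475 and 854 (-1.30 [-1.46 to -1.13]). Both lie on chromosome 8, 66.8 kb apart. LENG8 had 445 and 725 (-1.15 [-1.33 to -0.98]). ABCA7, a lipid transporter, had 418 and 654 (-1.10 [-1.28 to -0.92]). MAPK8IP3, a scaffold of JNK kinases, was at -0.89 and FGFR1, a growth factor receptor, at -0.85. In RTX these genes were between -1.32 (LENG8) and -0.36 (ABCA7), and in NT between -0.94 (LENG8) and 0.12 (FGFR1).

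Genes of the translation machinery lay above 0 as a group, by small amounts. Of 77 cytosolic ribosomal protein genes 76 had a ratio above 0 and 71 an interval above 0, yet 0 passed 1.5-fold in either direction (median 0.26). Over all 10416 genes 5634 had a ratio above 0 and 2644 (25.4%) an interval above 0. Here and in the lists that follow, the highest and lowest members are those of entries that hold 1 gene, unless a merged entry is given. The counts past 1.5-fold in these lists stand beside shares of 1.11% higher and 6.04% lower over all genes. The highest were RPL3, with 24369 fragments in TS-RIP and 12679 in RIPctr (0.49 [0.46 to 0.52]), and RPL5 (0.47 [0.42 to 0.52]). The lowest were RPS27L, a p53-induced relative of RPS27 (-0.02 [-0.17 to 0.14]), and RPS25 (0.01 [-0.08 to 0.09]). Of 60 initiation and elongation factors 1 was higher (median 0.22), the elongation factor methyltransferase gene EEF2KMT with 147 and 63 fragments (0.76 [0.34 to 1.22]). EIF2D, an initiation factor, was at 0.50, and EIF2AK3, the ER stress kinase PERK, at -0.23. The 74 mitochondrial ribosomal protein genes had a median of 0.15 with 0 past 1.5-fold, between MRPL47 (0.53 [0.26 to 0.81]) and MRPL50 (-0.24 [-0.57 to 0.09]).

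Genes of energy metabolism and protein breakdown lay on the same side. Of 81 nuclear genes of the respiratory chain 1 was higher (median 0.22), SDHC of complex II with 134 fragments in TS-RIP and 65 in RIPctr (0.59 [0.15 to 1.04]), and the ATP synthase inhibitor ATP5IF1 was next (0.55 [0.43 to 0.67]). At the other end were COX19 (-0.27) and COX5B (-0.22). Of 16 glycolytic genes 1 was higher (median 0.21), hexokinase HK1 with 4411 and 2072 (0.64 [0.56 to 0.71]), while its relative HK2 had 957 and 705 (-0.01 [-0.15 to 0.13]). PKM, pyruvate kinase, had 48613 and 27539 (0.37 [0.35 to 0.39]), and the lactate exporter SLC16A3 was at -0.19. Of 34 proteasome subunits 1 was higher (median 0.19), the entry that merges the immunoproteasome gene PSMB9 with PSMB8-AS1 (75 and 32 fragments, 0.76). PSMC5 (0.43) and PSMD2 (0.41) followed, and PSMD12 (-0.09) and PSMD5 (-0.04) were lowest. The 35 SLC25 carriers of the inner mitochondrial membrane held 1 higher gene, SLC25A43 (0.77 [0.23 to 1.34]), and 3 lower, among them SLC25A16 (-0.72) and SLC25A24 (-0.69), with a median of -0.00. SLC25A6, an ADP/ATP carrier, was at 0.44.

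Lists of the ER and the secretory route had medians above the 0.03 of all genes, of which 1.11% were higher. At most 2 genes a list were higher, too few to set against that share. Of 36 genes of ER targeting and translocation 2 were higher and 0 lower (median 0.17), SSR2 of the translocon-associated complex with 724 fragments in TS-RIP and 348 in RIPctr (0.60 [0.42 to 0.79]) and SEC11C, a signal peptidase subunit, with 330 and 158 (0.61 [0.33 to 0.89]). Lowest were GET4 (-0.31) and SSR4 (-0.30). Of 25 genes of oligosaccharide assembly and transfer 2 were higher and 0 lower (median 0.16), ALG8 and the mannosyltransferase ALG3 with 223 and 104 (0.65 [0.31 to 1.00]), while ALG13 was at -0.52 and ALG1 at -0.37. Of 38 ER-Golgi transport genes 1 was higher (median 0.15), YIF1A (0.67 [0.28 to 1.08]). ERGIC3 was at 0.48, KDELR3 at -0.30 and SEC24A at -0.29. The 27 ER chaperones and stress genes had a median of 0.21, with PDIA6 (0.37) and P4HB (0.35), both disulfide isomerases, on top. EDEM1, which sends misfolded glycoproteins to degradation, was the exception with 61 fragments in TS-RIP and 152 in RIPctr (-1.75 [-2.22 to -1.33]), against -0.56 in RTX and 0.29 in NT. The stress sensor ERN1 was at -0.56.

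Other lists of expressed genes had medians between 0.06 and 0.25, so a median above 0 was not particular to translation, energy or ER genes. The 31 genes of folate and thymidylate metabolism had a median of 0.07 with 0 past 1.5-fold. The ribonucleotide reductase subunit RRM1 (0.43 [0.36 to 0.50]) and the uridine-cytidine kinase UCK1 (0.42) were highest, and the reductase subunit RRM2B was at -0.23. Of 42 DNA replication genes 1 was lower (median 0.13), the polymerase subunit POLE2 with 46 fragments in TS-RIP and 54 in RIPctr (-0.67 [-1.28 to -0.09]). POLE was at -0.33, MCM2 of the replicative helicase at 0.43 and RPA2 at 0.42. The 29 G2/M genes (median 0.06) ran between CENPA (-0.23) and ASPM (-0.22) at the low end and CDC20 (0.40) and BUB1 (0.35) at the high end. The 20 interferon-stimulated genes had a median of 0.25, with IFITM3 (0.53) and IFI6 (0.44) highest, IFIT5 (-0.48) and DDX58 (-0.41), the sensor RIG-I, lowest. The 17 genes of the integrated stress response (median 0.12) were led by the transcription factor ATF4 (0.44) and the serine synthesis enzyme PHGDH (0.43), with SLC7A5 (-0.46) and CEBPB (-0.29) at the other end. The 17 cytosolic heat shock genes (median 0.20) ran between DNAJB4 (-0.48) and HSPB1 (0.47), with HSPB8 at 0.44 and CHORDC1 at -0.22. In each of these lists at most 1 gene passed 1.5-fold.

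Genes of cell surface and shape showed the same mixture. Epithelial keratins (9 genes, median 0.21), tetraspanins (17, 0.20) and BCL2 family genes (13, 0.08) had 0 members past 1.5-fold. KRT19 had 31150 fragments in TS-RIP and 19964 in RIPctr (0.19 [0.16 to 0.22]), KRT7 was at 0.46, KRT23 at 0.43 and KRT80 at 0.06. Among tetraspanins TSPAN33 (0.42) and TSPAN4 (0.39) were highest, TSPAN15 (-0.04) and TSPAN17 (-0.00) lowest. BIK (0.42) and BID (0.34) stood opposite BCL2L11 (-0.50) and MCL1 (-0.32). Of 21 laminins and integrins 2 were lower, the entry of LAMA5 with MIR4758 (1572 and 2549 fragments, -1.15) and ITGAX (-0.98), whereas LAMA3 (0.56 [0.44 to 0.68]) and LAMB1 (0.40) were above 0, and ITGAV was at -0.55. Of 15 tight junction genes 2 were lower (median -0.13), the cingulin-like gene CGNL1 (-0.83 [-1.29 to -0.39]) and the entry of CLDN12 with ENSG00000273299 (-0.62). CGN was at -0.51, CLDN3 at 0.27 and TJP3 at 0.17. Of 20 actins and tubulins 1 was lower, TUBGCP6 of the gamma-tubulin complex (-1.19 [-1.44 to -0.96]), while TUBG1 was at 0.36, TUBG2 at -0.23 and ACTA2 at 0.42. Of 29 sterol and fatty acid genes 1 was lower, the transcription factor SREBF1 with 746 and 867 fragments (-0.67 [-0.81 to -0.53]), and LSS was at -0.55, PMVK at 0.49 and MVK at 0.42.

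Lists of histones, zinc finger genes, regulators and kinesins had medians below the 0.03 of all genes, of which 6.04% were lower by 1.5-fold. Replication-dependent histone mRNAs end in a stem-loop in place of a poly(A) tail. Of 29 measured, 28 had a ratio below 0, 20 an interval below 0, and 5 were lower by 1.5-fold (median -0.39). Over all 10416 genes 5634 had a ratio above 0, and 2094 (20.1%) an interval below 0. H2BC11 had 60 fragments in TS-RIP and 80 in RIPctr (-0.86 [-1.37 to -0.37]), and H4C3 201 and 261 (-0.83 [-1.10 to -0.56]). H2AC6 (0.05) and H2BC21 (-0.05) were highest. Of 261 numbered ZNF genes 42 were lower and 6 higher (median -0.17). ZNF608 had 32 and 66 fragments (-1.47 [-2.15 to -0.87]) and ZNF431 53 and 108 (-1.46 [-1.98 to -0.99]), against ZNF524 (0.88) and ZNF444 (0.80 [0.40 to 1.22]) at the other end. Of 23 immediate early genes 2 were lower (median -0.17), FOS with 175 and 258 (-1.01 [-1.30 to -0.73]) and the phosphatase DUSP1 (-0.64, with an interval below 0), while ATF3 (0.30) and IER3 (0.22) lay above 0. Of 13 ERK feedback genes 1 was lower, SPRED1 (-0.83 [-1.16 to -0.51]), EPHA4 was at -0.44, PHLDA1 at 0.19 and ETV4 at 0.16. Of 30 kinesins 4 were lower (median -0.10), among them KIF26A (-0.98 [-1.42 to -0.56]) and KIF18B (-0.64), with KIF3C (0.52) and the mitotic KIF2C (0.40) highest. The shares of lower immediate early and ERK feedback genes were near that of all genes. Kinesin and ERK feedback transcripts were long (medians of 5658.5 and 4519 bases, against 3409 for all genes), and the part of length was not tested.

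Splicing factors were divided within the list. Of 69 SR proteins, hnRNPs and CLK kinases 7 were lower and 0 higher, with a median of 0.05. CLK2, a kinase of SR proteins, had 84 fragments in TS-RIP and 154 in RIPctr (-1.32 [-1.73 to -0.93]), the merged entry of SRSF1 with ENSG00000264112 and ENSG00000266086 had 852 and 1550 (-1.31), and PTBP2 41 and 55 (-0.86). CLK4 (-0.84) and CLK1 (-0.64), chosen after their values were seen, were lower as well. SRSF9 (0.45 [0.38 to 0.53]) and HNRNPD (0.40 [0.33 to 0.47]) were highest. COL1A1, a fibroblast collagen used as a marker of other cells, had 90 and 131 (-0.98 [-1.40 to -0.59]). The merged entry that holds the blood marker CD68 with EIF4A1, SENP3, SENP3-EIF4A1, SNORA67 and ENSG00000264772 was at 0.17 [0.13 to 0.21]. Of the 7 measured colon markers 6 were above 0, among them KRT18 (0.33), EPCAM (0.29) and CDH1 (0.20), and the entry of AXIN2 with CEP112 and ENSG00000266076 was at -0.45 [-0.75 to -0.16].

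**Figure D4:**
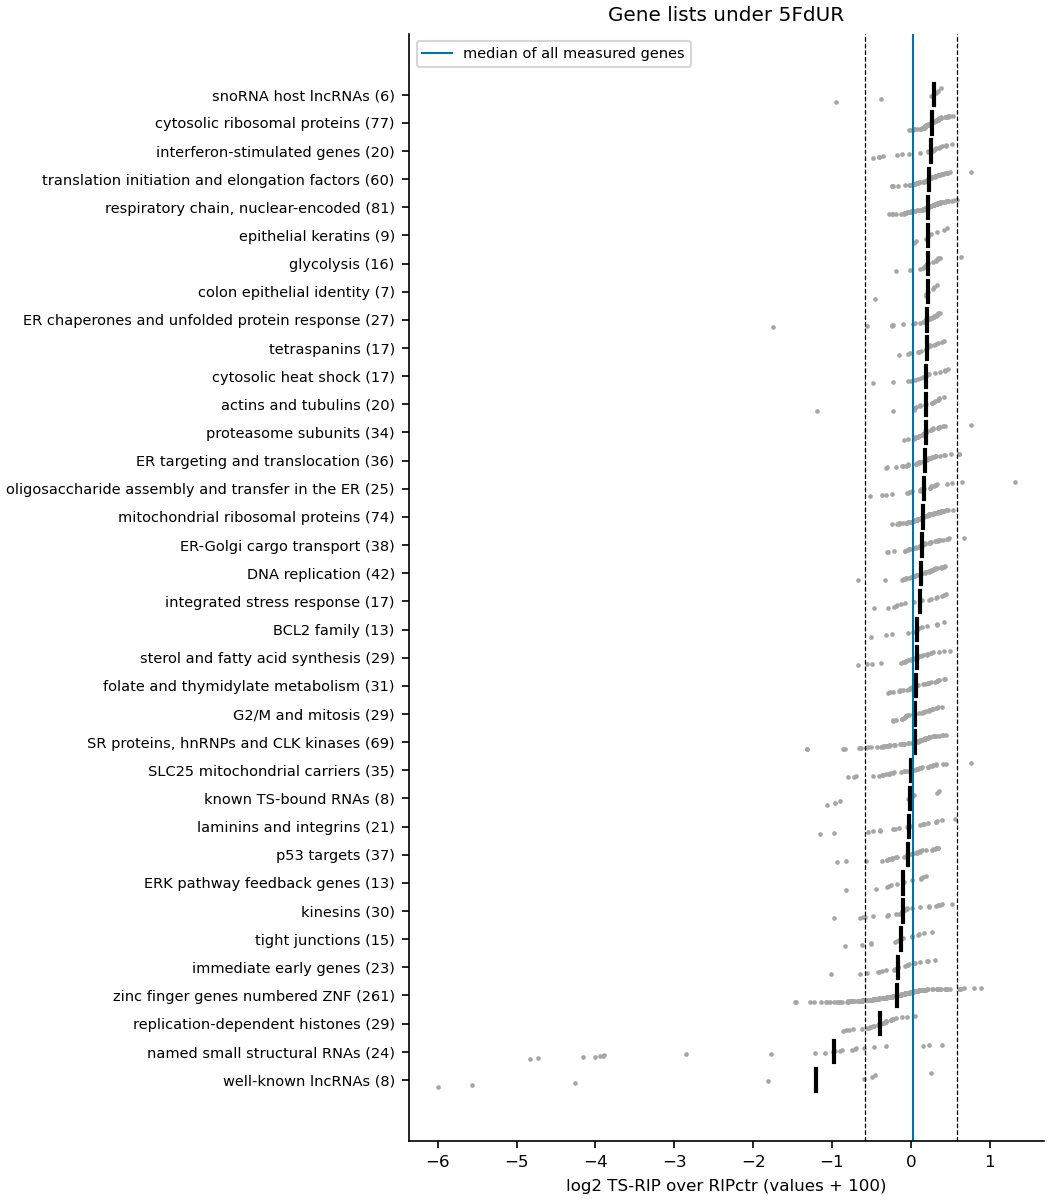
Ratios under 5FdUR (log2, 100 added to each value) of the measured members of each gene list with 5 or more of them, 1 grey point a gene, with the median of the list as a black bar. The number of measured members is in brackets, the blue line is the median of all genes (0.03) and dashed lines mark 1.5-fold. Ribosomal protein genes form a narrow cloud above 0, and small structural RNAs and well-known lncRNAs reach below -4.

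Transcript length went with the ratio. Over 9283 coding entries of 1 gene, the Spearman correlation of ratio and transcript length was -0.38, as a description across genes, which are not independent replicates. By quintiles of length, between the shortest (303 to 1876 bases) and the longest (5869 bases and above), the median was 0.20, 0.10, 0.02, -0.05 and -0.12. The share lower by 1.5-fold was 1.40% in the shortest quintile and 9.69% in the longest. This correlation was -0.30 for the length of the coding sequence and -0.25 for that of the 3′ UTR. Level went the other way (correlation 0.25), with medians of -0.09 in the lowest quintile and 0.16 in the highest. The 152 coding genes with 1 exon had a median of -0.14, against 0.04 for 8794 with 3 or more. Length and level bear on the lists above: ribosomal protein genes are short and abundant (median transcript 907 bases), and their part in the list values was not tested.

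When coding genes were classed by length and GC content together, long GC-rich mRNAs had the lowest median under 5FdUR. GC content alone gave a bent course, with medians of -0.05, 0.04, 0.09, 0.11 and 0.02 between the lowest and highest quintile. The course differed with length. In the highest GC quintile the median was 0.23 among the 528 shortest transcripts and -0.38 among the 160 longest. Of these 160, 36 (22.5%) were lower by 1.5-fold, 0 higher and 113 had an interval below 0. Over all genes 6.04% were lower by 1.5-fold and 20.1% had an interval below 0. In RTX the same 160 genes had a median of -0.07 with 11 lower, and in NT 0.06 with 2 lower. The Spearman correlation of ratio and GC content was 0.10 in 5FdUR, 0.35 in RTX and 0.41 in NT. These 160 genes had a median level of 53273, so the values rest on many fragments.

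**Figure D5:**
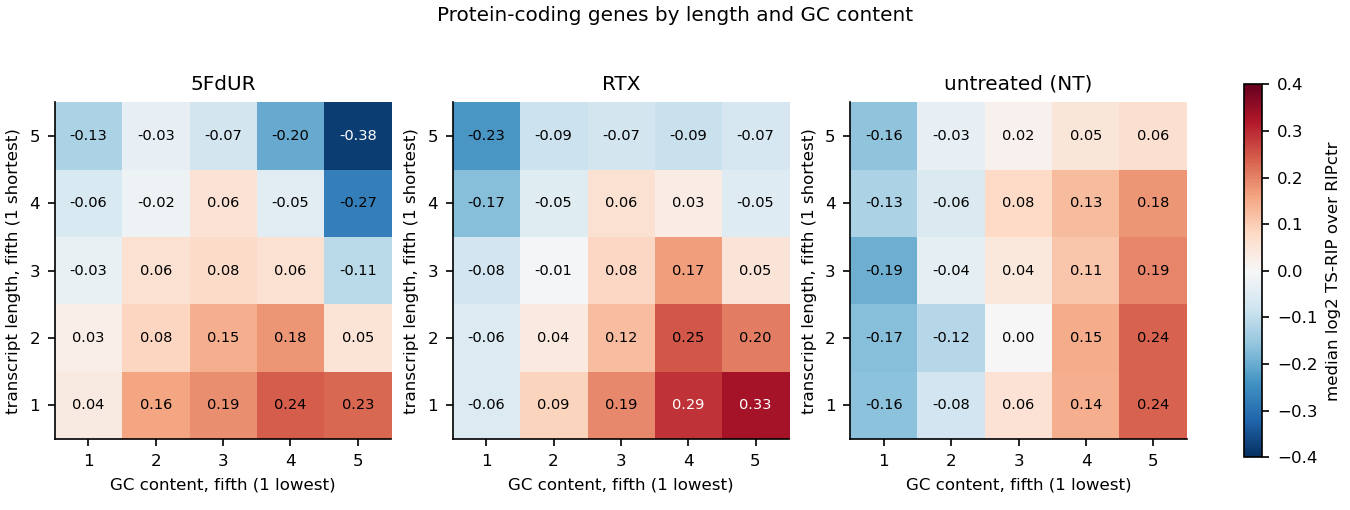
Median log2 ratio of TS-RIP over RIPctr for 9283 coding genes by quintiles of transcript length (vertical) and GC content (horizontal), for 5FdUR, RTX and NT. The corner of long GC-rich transcripts is at -0.38 under 5FdUR, -0.07 under RTX and 0.06 in NT.

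Members of that corner, named here after their values were seen, have many roles. GIGYF1, a repressor of translation, had 213 fragments in TS-RIP and 385 in RIPctr (-1.30 [-1.55 to -1.06]). LRP1, an endocytic receptor, had 261 and 458 (-1.26 [-1.49 to -1.04]), and NBEAL2, a protein of platelet granules, 278 and 470 (-1.21 [-1.43 to -0.99]). NOTCH1, a signalling receptor, had 1029 and 1197 (-0.67 [-0.79 to -0.55]), and INTS1 of the Integrator complex 1650 and 1969 (-0.71 [-0.80 to -0.61]). PLEC, the cytolinker plectin, was the most deeply counted of these with 20780 and 22745 (-0.58 [-0.61 to -0.55]), just within 1.5-fold. TUBGCP6, ABCA7, KIF26A and COL1A1 belong to the same corner. In RTX the ratios of these 10 genes were all below 0 as well, between -1.02 (LRP1) and -0.20 (KIF26A). In NT they lay between -0.41 (ABCA7) and 0.37 (KIF26A).

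Medians by features of the encoded protein lay close together, while the share of lower genes differed more. Coding genes with 0 hydrophobic stretches, a simple count of segments long enough to cross a membrane, had a median of 0.05 (6390 genes), and those with 6 or more -0.02 (353 genes). Lower by 1.5-fold were 33 (9.35%) of the genes with 6 or more and 307 (4.80%) of those with 0, and the part of transcript length in this was not tested. In NT the same classes stood at 0.00 and 0.17. Genes with a hydrophobic stretch near the N-terminus, as in a signal peptide, had a median of 0.05 (1644 genes) against 0.03 without (7639 genes) under 5FdUR, and 0.18 against 0.01 in NT.

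Across genes, the ratios under 5FdUR ran closer to those of RTX than to those of NT, which was not tested. The Spearman correlation across 8811 coding genes was 0.69 between 5FdUR and RTX and 0.17 between 5FdUR and NT, and no library is shared between treatments. Of 103 genes higher under 5FdUR and measured in RTX, 33 (32.0%) were higher in RTX, which is 12.5% of the 265 higher there. Of 594 lower ones 284 (47.8%) were lower in RTX, or 50.5% of 562. In NT the shared genes were 4 of 95 higher (4.21%, and 2.53% of 158) and 104 of 584 lower (17.8%, and 23.5% of 442). By the same rule RTX had 267 higher (2.58%) and 621 lower (6.00%) of 10353 genes, and NT 181 (1.76%) and 477 (4.63%) of 10292.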

How the data were processed

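The members and gene lists were chosen with earlier results of these data known. RNA of 3 TS-RIP and 3 RIPctr libraries was depleted of rRNA and sequenced in pairs with strand kept. The authors trimmed reads with fastp, removed rRNA reads, aligned the rest to GRCh38 with HISAT2, kept uniquely placed reads on core chromosomes, and counted fragments per gene of GENCODE 34 with Cufflinks and Cuffnorm. Tool versions were not given in the sources used here. The deposited values are a signal, fragment counts scaled between libraries by geometric means with no length correction, and they were whole multiples of 1 fragment in 100% of values under 200 fragments (tolerance 0.05 of a fragment). From these, fragments, ratios with a pseudocount of 100 and exact binomial 95% intervals without it were computed (Python 3.11.15, numpy 2.4.6, pandas 2.3.3, scipy 1.17.1, figures with matplotlib 3.10.9). With 1 library a group there was no test. A gene is called higher or lower past 1.5-fold (0.585 on the log2 scale). The genes named are, among entries of 1 gene, 10 coding genes at each end by ratio, 6 at each end among those whose mean exceeded 50000, the 6 highest and 10 lowest noncoding genes, all known TS-bound RNAs, CDKN1A, MDM2, and 2 members at each end of 37 gene lists, and other names were chosen after their values were seen. A hydrophobic stretch is a window of 19 residues with a mean Kyte-Doolittle value of at least 1.6, and an N-terminal one a window of 9 residues with at least 2 within the first 35. The random draws from each library that the authors deposited beside the full libraries served only as an alternative and to split the fragments. Of the deposited columns 28 were not used, 12 of them long RNA libraries. Alternatives were another pseudocount, scaling, level minimum, fold and subset of fragments. The ratio code was tested on simulated data. Some members of the lists are not reported here.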

Additional observations from a re-analysis of the deposited data

Results flagged for a closer look

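Of the 7SL copies, RN7SL2 (merged with ENSG00000282885) had a ratio of -0.89 under 5FdUR and 0.73 under RTX, and the pseudogene RN7SL4P had -1.09 under 5FdUR and 1.30 under RTX. They are given because the treatments lay on opposite sides of 0. With 1 library a group the difference was not tested.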

How the results depend on the processing

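None of the ratios and medians past 1.5-fold changed sign under these alternatives, while the coding median, near 0, did under 1 scaling. At a 2-fold size 3 genes were higher and 166 lower. With each library scaled to the same total 57 were higher, and the median was -0.0472 for coding genes and -0.25 for lncRNAs. Centring on the median of all genes gave a coding median of 0.00307. With means above 500 there were 417 higher and 2080 lower, a coding median of 0.00793 and an lncRNA median of -0.61. With means above 20000 there were 33 and 238, a coding median of 0.066 and a median of -0.33 for long GC-rich genes. The random draw gave 248 higher, and medians of 0.0312 for coding genes and -0.23 for lncRNAs, and the remainder gave 260 higher, and medians of 0.0309 and -0.22. Of the recomputed list medians 107 of 333 moved by more than their counting spread. Of the single-gene ratios 47 of 1164 recomputed values did so. No paired analysis was possible because each group holds 1 library. Limits are the lack of replicates, a bead control taken before the antibody step, and few fragments for genes near the level minimum.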
